A study of Homo sapiens with 6 samples.

Results

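The chromosome 19 miRNA cluster (C19MC) was followed in Huh7 cells, a human hepatoma cell line. Its members were taken as every name of the deposited miRNA table that belongs to miR-498, miR-512, the numbers from miR-515 to miR-527, miR-1283 or miR-1323, and rows without any read were kept. This gave 62 of the 2588 mature miRNAs in the table. The study sequenced miRNAs from 3 samples transfected with a plasmid carrying hsa_circ_0098181, a circular RNA (overexpression group), and from 3 transfected with the control plasmid (control group). All were Huh7 cells grown in DMEM with fetal bovine serum and transfected with a lipid reagent (Lipofectamine), and RNA was taken after 48 h. Huh7 is a single established line, and the labels do not say whether the 3 samples of a group came from separate cultures or days, so the spread between them may be technical. Control replicate 3 stood apart from its group, with a chi-square per degree of freedom of 157 and 121 against the other controls. The remaining 4 pairs within groups had 18.2 to 35.3. Results that rest on control replicate 3 are given with and without it where both are available.

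A miRNA is cut from a hairpin precursor, whose arms give the 5p and the 3p product, and it recognises its target mRNAs mainly through its seed, the bases 2 to 8 from the 5′ end. C19MC is a long array of such hairpins that is found in primates, is imprinted, and is transcribed mainly from the paternal copy in the placenta. Its miRNAs are abundant in trophoblast cells and in early embryonic cells and are near silent in most adult tissues, including liver. Part of them carries the AAGUGC core that also marks the miR-302 and miR-371 to miR-373 families of pluripotent cells and the miR-17 family of dividing cells.

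C19MC was close to silent in both groups. Of 51345062 counts on miRNAs in the 6 libraries, 14 were on C19MC, and 52 of the 62 members (83.9%) had a count of 0 in all 6 libraries. The remaining 10 members had 1 to 3 counts each. In the whole table without C19MC, 46.3% of 2526 miRNAs had a count of 0 in every library and 829 had 10 or more counts in all, a level that no member of the cluster reached.

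The sequences of the detected members show how alike the products of this array are. They were taken from RefSeq (GRCh38.p14), where 56 of the 62 names had an entry, and the names miR-498, miR-518f-3p, miR-520b, miR-520e, miR-522-3p and miR-527 did not match one. Capitals mark the seed.
miR-515-5p: uUCUCCAAaagaaagcacuuucug
miR-517b-3p: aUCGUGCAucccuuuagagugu
miR-517c-3p: aUCGUGCAuccuuuuagagugu
miR-518b: cAAAGCGCuccccuuuagaggu
miR-518e-5p: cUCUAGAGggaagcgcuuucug
miR-519c-3p: aAAGUGCAucuuuuuagaggau
The 56 matched members were 18 to 25 bases long and held 47 distinct sequences with 30 distinct seeds. The sequence of miR-518e-5p was also that of miR-519a-5p, miR-519b-5p, miR-519c-5p, miR-522-5p and miR-523-5p. The sequence of miR-517b-3p was also that of miR-517a-3p. Among the 56 matched members, 13 fell into 4 groups of identical sequence, so reads of these groups cannot be assigned to a precursor from the mature sequence alone. The names without a matched sequence could not be compared.

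A few members share their seed with miRNAs from other loci, and 2 of them are shown beside such miRNAs, because the levels of those seeds are compared further on.
miR-519d-3p: cAAAGUGCcucccuuuagagug
miR-17-5p: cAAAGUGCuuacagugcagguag
miR-93-5p: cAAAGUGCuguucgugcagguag
miR-520c-3p: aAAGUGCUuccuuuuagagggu
miR-372-3p: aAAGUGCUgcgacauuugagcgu
miR-519d-3p had its first 8 bases in common with miR-17-5p and with miR-93-5p, and it had the same base at 13 of 22 positions of miR-17-5p and at 12 of 22 positions of miR-93-5p. miR-520c-3p had its first 8 bases in common with miR-372-3p and the same base at 11 of 22 positions.

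The 10 detected members were spread over the libraries without order. miR-498 had the highest count, with 3 counts in overexpression replicate 3 (0.362 TPM) and 0 in the other 5 libraries. The TPM value of the authors is the count scaled by the total miRNA count of the library, which is the same as CPM. miR-498 comes from a single precursor near the start of the array, and the deposited name does not say which arm was counted. RefSeq lists both of its arms.
miR-498-5p: uUUCAAGCcagggggcguuuuuc
miR-498-3p: aAAGCACCuccagagcuugaagc
The 5p arm lies on chr19:53674230-53674252 and the 3p arm on chr19:53674266-53674288, both on the plus strand of GRCh38.

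Only miR-515-5p and miR-517c-3p were counted in more than a single library. miR-515-5p had 1 count in overexpression replicate 1 (0.125 TPM) and 1 count in control replicate 1 (0.0927 TPM). miR-517c-3p had 1 count in overexpression replicate 1 (0.125 TPM) and 1 count in control replicate 2 (0.115 TPM). Each of them was thus seen in both groups, and at 0 in the other 4 libraries.

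The other 7 members had 1 count in 1 library. miR-517b-3p was counted in overexpression replicate 1, while miR-518b and miR-518f-3p were counted in overexpression replicate 2. miR-519c-3p was counted in control replicate 1. miR-518e-5p, miR-519a-5p and miR-519c-5p were each counted in control replicate 3. These last 3 names share the identical sequence printed above, and whether their 3 counts were separate reads or 1 read counted under several names was not tested.

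**Figure D1:**
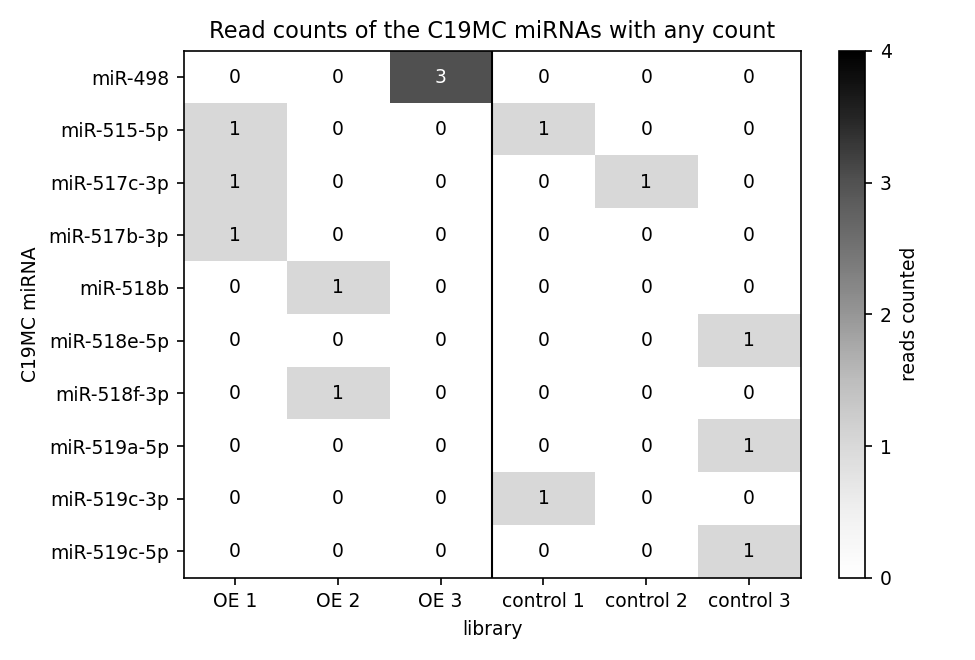
Read counts of the 10 C19MC miRNAs with any count (vertical axis) in each of the 6 libraries (horizontal axis; OE, overexpression). The number and the shade of a cell give the reads counted; a single cell reaches 3, for miR-498 in overexpression replicate 3, and only miR-515-5p and miR-517c-3p have counts in 2 libraries.

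The 3p and 5p names held equal counts, which were too few to compare the arms. Of 27 members named as 3p products, 4 were detected, with 5 counts. Of 25 named as 5p products, 4 were detected, also with 5 counts, and 3 of these were on the identical sequence in control replicate 3. The 10 names without an arm held 4 counts on miR-498 and miR-518b. For the precursors detected by name the other arm was at 0 in all libraries (miR-515-3p, miR-517-5p, miR-518e-3p, miR-518f-5p and miR-519a-3p), except for miR-519c. Both of its arm names had 1 count, and the 5p sequence is shared with other precursors.

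The identical names also show how the authors' counts were divided. miR-517b-3p had 1 count and miR-517a-3p, with the same sequence, had 0. Among the 6 names with the sequence of miR-518e-5p, 3 had 1 count and miR-519b-5p, miR-522-5p and miR-523-5p had 0. The groups of miR-518d-5p, miR-520c-5p and miR-526a and of miR-516a-3p and miR-516b-3p were at 0. Among the 2281 names of the whole data set with a RefSeq sequence, 10 groups of names shared a sequence. In all 5 groups with any count the names of a group differed in count in at least 1 library. For more abundant names this could be seen directly. miR-199a-3p had 1674 counts and miR-199b-3p 854, while miR-365a-3p had 11389 and miR-365b-3p 11664. These examples were chosen after their values were seen. A count under 1 name of such a group is therefore not a measure of 1 precursor, and how the reads were divided is not given in the sources used here.

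The summed level of the cluster was compared between the groups. The sum of all 62 members was 3, 2 and 3 counts in overexpression replicates 1 to 3, which is 0.376, 0.236 and 0.362 TPM. In control replicates 1 to 3 it was 2, 1 and 3 counts, which is 0.185, 0.115 and 0.420 TPM. The values of the groups overlapped through control replicate 3 alone, which was the highest library. Without it, both remaining controls lay below the lowest overexpression library in TPM. That library, overexpression replicate 2, and control replicate 1 had 2 counts each, so their order came from library size alone (8469016 against 10786295 counts).

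The overexpression mean was 0.325 TPM ± 0.0769 (SD, n = 3) and the control mean 0.240 TPM ± 0.159 (SD, n = 3), a log2 ratio of 0.44. The log2 ratio was 1.11 without control replicate 3 and 1.145 with 1 name for each distinct sequence, which counts the identical names of that library once. Without the name miR-498 it changed sign, to -0.235, whereas without the library that held the 3 counts of miR-498 it was 0.35. The size of the ratio thus depended on how a few counts were treated, and with each library left out in turn it stayed above 0, from 0.10 to 1.11. Pooled over libraries and scaled by the pooled total, the overexpression group had 8 counts, or 0.323 CPM (95% exact Poisson interval, 0.140 to 0.637), and the control group had 6, or 0.225 CPM (0.0828 to 0.491). The ratio of these values was 1.43, with an exact 95% interval from 0.436 to 5.01. These intervals cover counting error only and take each count as a separate read. They include control replicate 3, which held 3 of the 6 control counts, and no pooled interval without it is given here. No difference was detectable at this depth, since any ratio within that interval could give these counts. Each group detected 6 members.

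**Figure D2:**
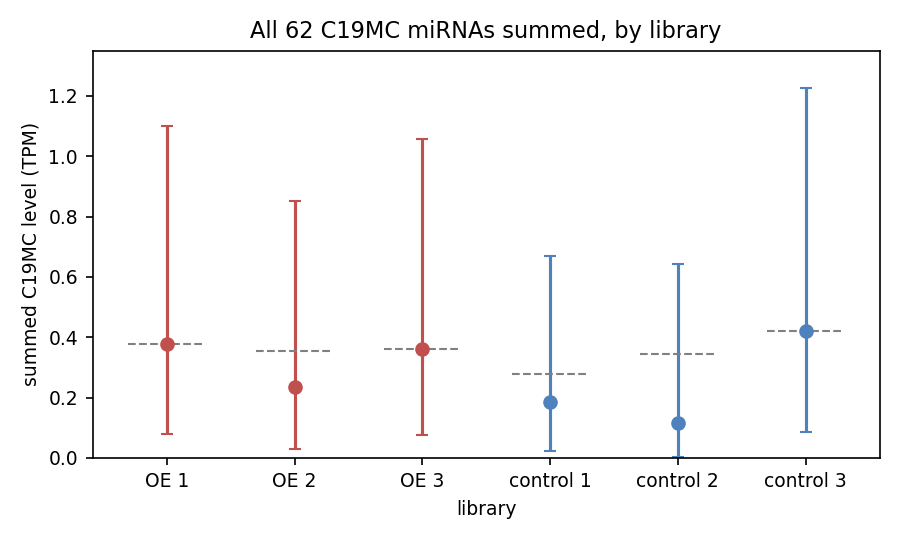
Summed level of all 62 C19MC miRNAs in TPM (vertical axis) in each library (horizontal axis; OE, overexpression). Points are the measured sums, bars the exact 95% Poisson intervals from the 1 to 3 counts behind each point, and dashed lines the level of 3 counts in that library; the intervals of all 6 libraries overlap.

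Depth set the limit of these statements. A library held 7144798 to 10786295 counts, so a single count was worth 0.0927 to 0.140 TPM. A count of 0 in 1 library allowed a level of up to 3 counts, which is 0.278 TPM in the deepest and 0.420 TPM in the shallowest library. For the 52 members at 0 in all 6 libraries the pooled limit was 0.0584 CPM each. For the entire cluster the pooled value was 0.273 CPM (exact 95% interval, 0.149 to 0.457).

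The test across all miRNAs could not be applied to the members. edgeR's filter on low counts kept 552 miRNAs, of which the least abundant had 50 counts in all, and 0 of the 62 members were kept. Among those 552, 0 passed an adjusted p of 0.05 in the quasi-likelihood test of edgeR, adjusted by the Benjamini-Hochberg method (0%), while 50 had an unadjusted p under 0.05 (9.06%), 24 of them higher and 26 lower in the overexpression group. This split depended on the scaling. With the library size in place of TMM factors, which moved the median change over the 552 miRNAs from 0.0038 to -0.11 on the log2 scale, it was 1 higher and 69 lower, and limma on log2 of TPM with 1 added gave 3 higher and 54 lower. DESeq2 also called 0, with 41 at an unadjusted p under 0.05. Without control replicate 3 the count of calls was 56 of 565, again with 0 members among the miRNAs tested.

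Without a filter, edgeR tested the 1366 miRNAs with any count and called 6 (0.439%). The 10 detected members were among those tested and 0 of them were called, nor did any reach an unadjusted p under 0.05. The smallest p was that of miR-498, at 0.114, with an adjusted p of 0.775 by edgeR with Benjamini-Hochberg adjustment. The adjusted p of the 10 members ran from 0.775 to 0.977. With 1 to 3 counts per member these p-values do not show that the groups were alike, and no fold change is given for a member, since both groups were at or under 3 counts.

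By name, the few counts lay on hairpins scattered along the array. The array spans chr19:53666679-53762430 in GRCh38, from MIR512-1 to MIR519A2, and holds 46 precursors over 95.752 kb, all on the plus strand. GENCODE release 29 lists each of them as a miRNA gene of its own. The nearest protein-coding genes are DPRX, a homeobox gene, 29.67 kb before the array, and NLRP12, an innate immune receptor gene, 31.173 kb after it. Within the array GENCODE lists 5 snRNA genes of the RNU6 type on the minus strand and AC011453.1 (ENSG00000269842.5), a lincRNA whose exon overlaps the last precursor, MIR519A2.

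Counts were placed under the names of 10 precursors. They began 7.518 kb after the start of the array, at MIR498 (chr19:53674197-53674320), and ended at MIR519A1, 85.718 kb after it. MIR515-1 and MIR515-2, at 12.324 and 18.33 kb, give the same miR-515-5p, so that its 2 counts belong to either. MIR519C, at 19.79 kb (chr19:53686469-53686555), was the only precursor with counts under the names of both arms, both in the control group. The counts at MIR517B, MIR518E, MIR519A1 and the 5p arm of MIR519C are on sequences that other precursors also give. They are placed by name only, so the number of precursors with reads and the end of their range are not settled. Whether those of MIR518E, MIR519A1 and the 5p arm of MIR519C were separate reads was not tested. MIR517C (chr19:53741313-53741407), at 74.634 kb, had 1 count in each group. Neighbouring hairpins were mostly at 0, and the counts of the groups were interspersed along the array.

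**Figure D3:**
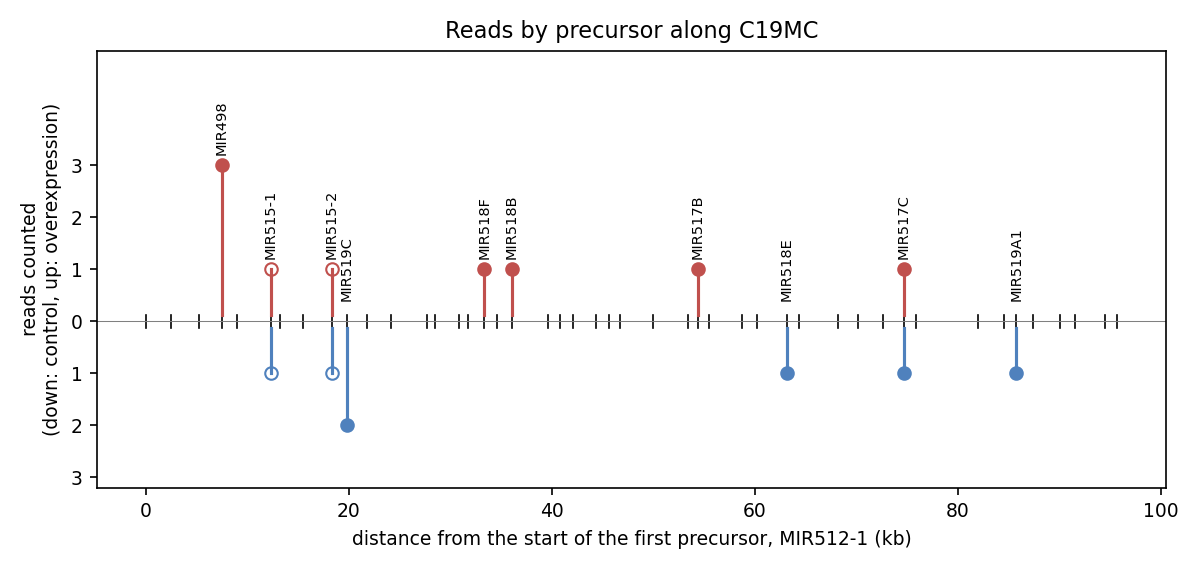
Reads counted under each C19MC precursor (vertical axis; up, sum of the 3 overexpression libraries, down, sum of the 3 control libraries) against its distance from the start of MIR512-1 in kb (horizontal axis). Ticks on the line mark the 46 precursors, and open circles mark miR-515-5p, whose 2 counts are drawn at both of its precursors. Counts are placed by name, and those at MIR517B, MIR518E, MIR519A1 and the 5p arm of MIR519C are on sequences shared with other precursors. By name, 10 precursors carry a count and the tallest is MIR498 with 3.

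The seeds of the matched members divide into those that no other matched miRNA carries and a few that are shared. Of the 30 seeds, 25 were found in no other miRNA of the table with a RefSeq sequence, and only 3 were carried by a miRNA of another locus that had counts. For those 25 seeds no reads of another matched miRNA added to the reads of the members.

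The largest group, with the seed UCUAGAG, had 10 members, all 5p products or, for miR-526a, a name without an arm, and had 3 counts. It includes the 6 names with the sequence of miR-518e-5p and the 3 with that of miR-518d-5p. The seed UCGUGCA of miR-517a-3p, miR-517b-3p and miR-517c-3p also had 3 counts, 2 in overexpression replicate 1 and 1 in control replicate 2. The seed AAAGCGC of miR-518a-3p, miR-518b, miR-518c-3p and miR-518d-3p had 1 count, and so did AAGUGCA of miR-519a-3p, miR-519b-3p and miR-519c-3p. The seed UCUCCAA of miR-515-5p and miR-519e-5p had 2. None of these 5 seeds was found in a matched miRNA from another locus, and each had at most 3 counts on matched members over 6 libraries. The detected members miR-498, with 3 counts, and miR-518f-3p, with 1 count, had no matched sequence. Their counts are therefore in none of these groups. The seeds of both arms of miR-498, printed above, are not among the 30, so only the count of miR-518f-3p could raise a seed total.

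The seed of the embryonic families was not detected. miR-520a-3p, miR-520c-3p and miR-520d-3p carry AAGUGCU, which is also the seed of miR-302a-3p to miR-302d-3p, miR-302e, miR-372-3p and miR-373-3p. All 10 of these miRNAs had a count of 0 in all 6 libraries. In the neighbouring cluster of miR-371 to miR-373, which begins 25.245 kb after the array, 1 of 8 names had a count, miR-371a-5p with 1 in overexpression replicate 2 (0.118 TPM). The 10 names of the miR-302 family had 0 counts.

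The seed AAAGUGC was abundant, but not from C19MC. miR-519d-3p and miR-526b-3p carry it and were at 0 in all libraries. The 6 miRNAs of other loci with this seed, miR-17-5p, miR-20a-5p, miR-20b-5p, miR-93-5p, miR-106a-5p and miR-106b-5p, had 2351005 counts. Their summed level was 44061, 43825 and 45767 TPM in overexpression replicates 1 to 3 and 45834, 49172 and 45891 TPM in control replicates 1 to 3. The overexpression mean was 44551 TPM ± 1060 (SD, n = 3) and the control mean 46966 TPM ± 1911 (SD, n = 3).

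miR-93-5p was the most abundant of them, with 1460814 counts. It was at 28713 TPM ± 605 (SD, n = 3) with the circular RNA and at 28425 TPM ± 1803 (SD, n = 3) with the control plasmid, and the change by edgeR was 0.13 on the log2 scale (SE 0.069, adjusted p = 0.568). All 6 were tested by edgeR and 0 passed the threshold, against 0% of all miRNAs tested. Among the 6, 2 had an unadjusted p under 0.05 in edgeR, miR-17-5p and miR-106b-5p, against 9.06% of all miRNAs tested. miR-17-5p had the lowest adjusted p, 0.295 in edgeR, with values of 1477 to 1782 TPM in the overexpression group and 2101 to 2332 TPM in the control group that did not overlap, and a log2 fold change of -0.34 (SE 0.091). Its call depended on the setting, since its adjusted p by edgeR was 0.0381 when only library size was used for scaling and 0.0392 when no filter was applied. Without control replicate 3, edgeR called 4 of the 8 miRNAs that share a seed with a member and had counts. They were miR-17-5p, miR-20a-5p, miR-106b-5p and miR-33b-3p, and miR-17-5p had an adjusted p of 9.01e-06 by edgeR. In that setting 56 of all 565 miRNAs tested were called, so calls were not particular to these miRNAs. miR-17-5p, miR-106b-5p and the next pair of miRNAs are named after their values were seen.

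The remaining shared seeds were found in less abundant miRNAs. AGUGCCU, of miR-515-3p and miR-519e-3p, was also the seed of miR-33b-3p, which had 592 counts and 8.89 TPM ± 1.83 (SD, n = 3) in the overexpression group against 14.2 TPM ± 1.51 (SD, n = 3) in the control group, with an adjusted p of 0.306 by edgeR. CAAAACU, of miR-1323, was also the seed of miR-548o-3p, which had 301 counts and levels of 4.60 to 7.23 TPM. GCUUCCU, of miR-516a-3p and miR-516b-3p, was shared with miR-7162-5p, which had 0 counts. The members that carry these seeds all had 0 counts.

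**Figure D4:**
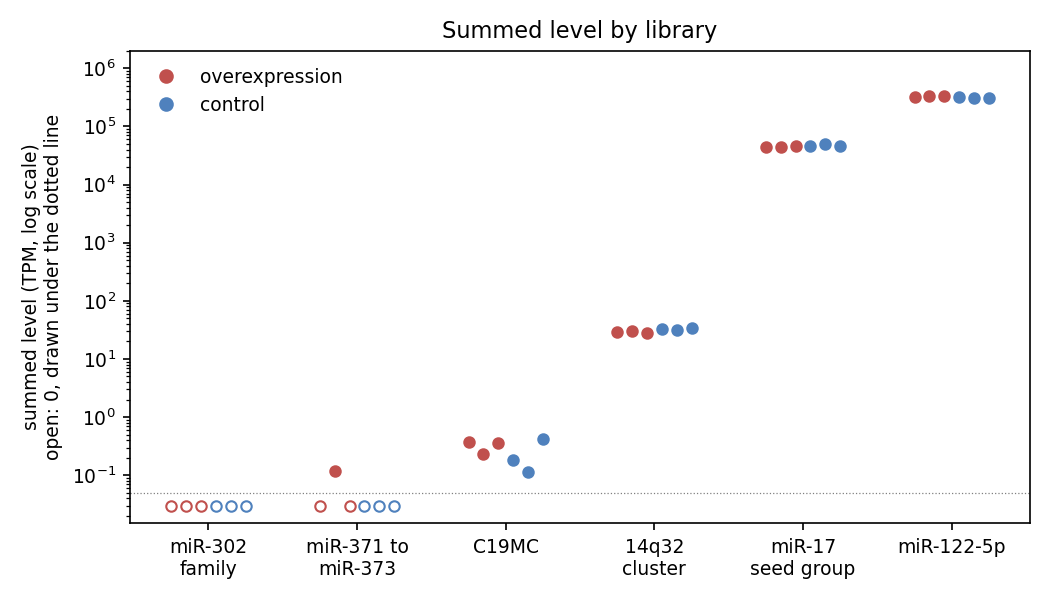
Summed level in TPM on a log scale (vertical axis) of 5 groups of miRNAs and of miR-122-5p (horizontal axis), with 1 point per library in the order overexpression 1 to 3 and control 1 to 3. Open points are sums of 0 and are drawn under the dotted line; the C19MC points lie between 0.115 and 0.420 TPM, those of the miR-17 seed group, which shares a seed with miR-519d-3p and miR-526b-3p, between 43825 and 49172 TPM.

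Short sequence words that recur in the array were counted as well. The letters were searched in the mature RNA as written, without the opposite strand, in the 56 members and in 2225 other miRNAs with a RefSeq sequence, after the sequences had been looked at. AAGUGC was found in 13 members (23.2%) and in 24 other miRNAs (1.08%). Its longer form AAAGUGC, which contains it, was found in 10 members (17.9%) and in 8 others (0.360%). AAAGCGC was found in 6 members (10.7%) and in 0 others. CUCUAGAGG, which covers the seed of miR-518e-5p and its identical names, was found in 10 members (17.9%) and in 0 others. These 10 names include the 6 with the sequence of miR-518e-5p and the 3 with that of miR-518d-5p, so they are not 10 distinct sequences. CUUUAGAG, from the 3p products, was found in 9 members (16.1%) and in 0 others.

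The reads on these words are mostly those already counted by seed, so they are not a second comparison. The 13 members with AAGUGC had 1 count, on miR-519c-3p. The 24 other miRNAs with it had 2363165 counts, although only 8 of these miRNAs were detected. Of those counts, 2351005 were on the 6 miRNAs of other loci with the seed AAAGUGC. The words that the other matched miRNAs lacked, AAAGCGC, CUCUAGAGG and CUUUAGAG, had 1, 3 and 2 counts on the matched members. The counts of miR-498 and miR-518f-3p, whose names had no matched sequence, are not in these totals. Neither printed arm of miR-498 contains any of these words, while miR-518f-3p could not be searched. A match is a description of the letters and does not show that a site was bound.

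The silence of C19MC was compared with that of other clusters. Precursors on 1 strand that lay within 10000 bases of the next were joined, and the 8 clusters with at least 10 names that matched RefSeq were counted, a comparison added after the values were seen. C19MC had 8 of its 56 matched names detected (14.3%), with 10 counts. Only the cluster of miR-302 and miR-367 on chromosome 4, at 0 of 10, had a lower share. The cluster from MIR379 to MIR656 on chromosome 14, the other large imprinted array of the genome, had 45 of 73 names detected (61.6%) and 1122 counts. The clusters from MIR363 to MIR106A on chromosome X and from MIR493 to MIR136 on chromosome 14 had 63.6% and 73.3%. The other 3, among them MIR17 to MIR92A1 with 2173705 counts, had every name detected.

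Taken whole, from MIR493 to MIR656, the 14q32 array had 90 names, of which 33 (36.7%) were at 0, 20 had 1 to 3 counts and 25 had 10 or more. Its summed level was 27.5 to 33.9 TPM per library, and its most abundant member was miR-127-3p with 300 counts. C19MC had 52 of 62 names at 0, 10 with 1 to 3 counts and 0 with more, and its highest library (0.420 TPM) was far under the lowest of the 14q32 array. No test was made of this difference between clusters, and clusters share the depth of their libraries.

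**Figure D5:**
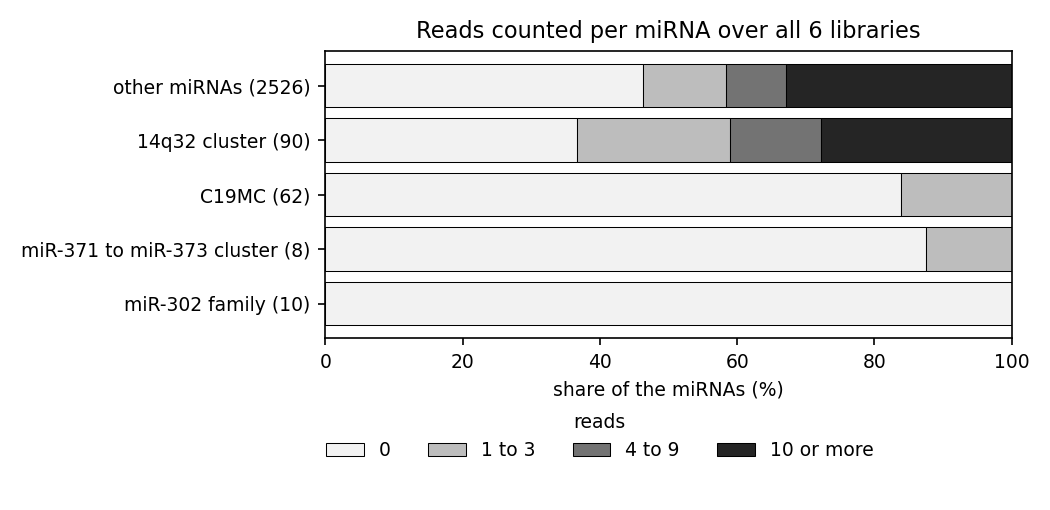
Share of the miRNAs of each group (horizontal axis, percent; number of names in brackets) by their total count over all 6 libraries, with the shade giving 0, 1 to 3, 4 to 9 and 10 or more. C19MC shows only the classes 0 (83.9%) and 1 to 3, as do its neighbour miR-371 to miR-373 and, with 0 alone, the miR-302 family, whereas the 14q32 cluster and the other miRNAs reach 10 or more.

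The libraries themselves were of hepatic type. The 5 hepatocyte markers miR-122-5p, miR-122-3p, miR-192-5p, miR-194-5p and miR-148a-3p were detected and summed to 403552 to 435332 TPM, and miR-122-5p alone had 16558447 counts. Of 8 markers of pluripotent cells, 7 were at 0, and the list summed to 0 to 0.118 TPM. Markers of blood cells summed to 11.6 to 13.2 TPM in the overexpression group and 15.8 to 18.7 TPM in the control group, those of muscle to 1.45 to 2.24 TPM, and those of neurons to 98.6 to 149 TPM. The part of the blood markers in the values of miR-17-5p and miR-33b-3p was not tested. Markers of stroma and endothelium summed to 3186 to 3387 TPM, with miR-126-3p alone at 3053 to 3271 TPM. In the neuron list, miR-9-5p alone was at 96.2 to 146 TPM, so these sums mostly give the level of a single miRNA. The C19MC sum, which is the list for trophoblast, was the lowest of the list sums after that of pluripotent cells. TMM factors ran from 0.921 to 1.09.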

How the data were processed

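Total RNA of 6 samples of Huh7 cells was sequenced for miRNAs. The authors deposited counts, the reads assigned to each mature miRNA, without normalization, and TPM values, which equal CPM (the count scaled by the library's total) to within 0.00303. The submitters' processing notes name hg38, TopHat2 2.0.9, TopHat and Bowtie. How reads were trimmed, annotated and, where they fit more than 1 miRNA, assigned is not given in the sources used here, and this decides how reads of near-identical members were split.

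The groups were tested on counts in edgeR 4.0.16 under R 4.3.3 (filterByExpr, minimum count 10, minimum total 15; TMM; quasi-likelihood test, two-sided, group as the only term, Benjamini-Hochberg adjustment over all miRNAs tested, threshold 0.05). Alternatives were DESeq2 1.42.0, limma 3.58.1 on log2 of TPM with 1 or 0.1 added, other scalings and filters, the replicate number as a block, 1 name per distinct sequence and leaving out each sample. Poisson intervals were exact (95%), and a count of 0 was taken to allow 3 counts. No library was a copy of another, as replicates differed beyond sampling noise.

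Members and lists were chosen with earlier results of these data known. The miRNAs named were the 10 members with the highest totals, those of the same sequence, their other arms, and the most abundant of the related families. Sequences and seeds were matched by name to RefSeq (GRCh38.p14). Positions of precursors and arms were read from RefSeq, and the genes in and around the array from GENCODE release 29 (GRCh38).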

Additional observations from a re-analysis of the deposited data

How the results depend on the processing

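0 members of C19MC were called under any of the alternatives, but members entered the test only without a filter, so that this says nothing of stability. Over the whole table, 0 miRNAs were called under most alternatives, 3 when scaled by library size only and 6, all of them lower in the overexpression group, when not filtered. Leaving out each sample in turn gave 0 to 56 calls, the 56 without control replicate 3, the library that differed most from its group. The cause was not tested. The unadjusted split of limma with 0.1 added was 3 higher and 49 lower.

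The log2 ratio of the summed C19MC level was 0.44, with a pooled SD of 0.717 between the replicates of a group. It was -0.235 without miR-498, 1.145 with 1 name for each distinct sequence, 0.56 with TMM-scaled CPM and from 0.10 to 1.11 when each sample was left out in turn. Same-numbered samples were not paired by the labels, and their deviations from the group means correlated at -0.20, 0.19 and 0.15. With so few samples per group, this check cannot tell whether same-numbered samples shared a day or batch. With the replicate block the ratio was 0.61 and the block left 0 calls over the whole table. No member had 10 counts and none passed the filter, so the level of such members, the fold changes of single members and their median could not be computed.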
